A study of Rattus norvegicus with 24 samples.

Results

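The respiratory chain and ATP synthase of rat liver and spleen are described here through 90 nuclear genes, chosen because their single symbol in the array annotation begins with Nduf, Sdha, Sdhb, Sdhc, Sdhd, Uqcr, Cox4, Cox5, Cox6, Cox7, Cox8 or Atp5. They are 90 of the 14201 genes that the array's annotation names. The study gave male wild-type Sprague-Dawley rats, 46 to 49 days old, cyclophosphamide or vehicle by mouth for 5 days and hybridised RNA of liver and of spleen to 1 Affymetrix rat expression array each. Cyclophosphamide is an alkylating drug that crosslinks DNA and is most toxic to dividing cells such as those of blood formation and lymphoid tissue. The 4 groups of 3 rats were cyclophosphamide (40 mg/kg/day) with wood sticks in the cage, cyclophosphamide (40 mg/kg/day) without wood, vehicle with wood, and vehicle without wood, giving 12 rats and 24 arrays. Each rat gave both organs, and no organ was pooled.

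The chain passes electrons from NADH and succinate to oxygen through 4 complexes of the inner mitochondrial membrane, and complex V uses the proton gradient so formed to make ATP. Complex I takes electrons from NADH, complex II from succinate as part of the citric acid cycle, complex III hands them from ubiquinol to cytochrome c, and complex IV to oxygen. Subunits encoded in mitochondrial DNA carry other symbols and are not among these genes. Liver is rich in mitochondria, and in spleen the members are read from a mixture of lymphocytes, macrophages, stroma and, in rats, blood-forming cells.

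The members comprised 34 complex I subunits (6 of the catalytic core and 28 supernumerary) and 6 complex I assembly factors, 4 subunits and 4 assembly factors of complex II, and 7 subunits of complex III. Complex IV was represented by 10 subunits of wide expression and 7 isoforms known from muscle, lung, testis or hypoxic tissue, and complex V by 15 subunits. The others were the supercomplex factor Cox7a2l, the ATP synthase inhibitor Atp5if1 and the pseudogene Cox6c-ps1. Of the 101 probe sets that name 1 member, the brightest on average was used for each gene. Probe sets that name 2 genes were left out, so that Atp5mc1, Atp5mc2, Cox7a2, Uqcrb, Ndufs5 and Ndufa10 have no value of their own. In each organ 89 of the 90 genes were tested: in liver Cox8b was blank on every array, and in spleen Cox7a1 was blank in all 3 vehicle rats without wood.

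Promoters were read for 82 of the 90 members from RefSeq (build GRCr8), as 300 bases from 250 before to 50 after the gene's start. The motifs known from respiratory genes were searched on both strands, among them the motif of nuclear respiratory factor 1 (NRF1; GCGCA, any base, GCGC) and CCGGAAG of ETS factors such as GABP. The NRF1 motif was in 17 of 82 windows (20.7%), against 4.25% of 33469 windows of all genes, and the ETS motif was in 30.5% against 8.75%. Either motif was in 40 of 82 windows (48.8%), against 12.2% of all windows. AAGATGGCG of YY1 was in 13.4% against 1.73% and AAGGTCA of estrogen-related receptors in 13.4% against 4.61%, while CCAAT, a general promoter motif, was in 35.4% against 37.5%. Among 21851 windows of protein-coding genes, the shares were 5.67% (NRF1), 10.7% (ETS), 15.3% (either), 2.07% (YY1), 3.78% (estrogen-related receptors) and 38.0% (CCAAT). The 120 bases before the start are printed for the 4 complex II subunits, which were all higher in the spleens of treated rats, and for the complex III subunits Uqcrfs1 and Uqcrh, which were lower. Capitals mark the NRF1 and ETS motifs on either strand, and each sequence runs 5′ to 3′ along the gene.
Sdha (chr1:30764433-30764552, plus strand): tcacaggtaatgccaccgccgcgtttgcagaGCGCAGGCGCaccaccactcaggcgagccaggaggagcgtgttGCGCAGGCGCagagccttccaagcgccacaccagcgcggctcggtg
Sdhb (chr5:158547814-158547933, plus strand): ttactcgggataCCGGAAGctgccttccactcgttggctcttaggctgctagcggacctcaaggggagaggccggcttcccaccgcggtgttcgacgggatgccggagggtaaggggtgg
Sdhc (chr13:86098026-86098145, minus strand): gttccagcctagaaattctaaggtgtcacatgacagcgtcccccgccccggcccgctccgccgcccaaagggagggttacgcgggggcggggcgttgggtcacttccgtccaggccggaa
Sdhd (chr8:59850642-59850761, minus strand): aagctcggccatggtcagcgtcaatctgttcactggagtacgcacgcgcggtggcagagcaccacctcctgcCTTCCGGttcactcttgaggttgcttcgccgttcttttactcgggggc
Uqcrfs1 (chr17:34186482-34186601, plus strand): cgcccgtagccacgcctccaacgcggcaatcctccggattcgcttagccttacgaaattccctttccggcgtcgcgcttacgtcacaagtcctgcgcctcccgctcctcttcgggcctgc
Uqcrh (chr5:134790883-134791002, minus strand): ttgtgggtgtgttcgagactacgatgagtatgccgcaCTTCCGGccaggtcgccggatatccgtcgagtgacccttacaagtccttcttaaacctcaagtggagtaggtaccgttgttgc
The stretch before Sdha holds the NRF1 motif 2 times, those before Sdhb, Sdhd and Uqcrh hold the ETS motif 1 time each, and those before Sdhc and Uqcrfs1 hold neither. The other complex III subunits that were lower, Uqcrc2 and Uqcrq, are not printed. Their stretches hold the ETS motif 2 times and 1 time, and no NRF1 motif. A match is a run of letters and was not tested as a binding site. The NRF1 motif was in 4 of the 14 matched members that were higher in treated spleens and in 3 of the 16 that were lower, and the ETS motif in 4 and 5.

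Some facts of the arrays bear on all values below. The deposited values are log10 intensities, shown here as log2, without an offset. The liver array of rat 2003 (cyclophosphamide, no wood) had 6060 blank cells, and its correlations with the remaining livers averaged 0.847, where no other liver averaged under 0.906. Of the spleen arrays, 4, of rat 2005 (cyclophosphamide, no wood) and of all 3 vehicle rats without wood, had 1778 to 1920 blank cells, and the other 8 had 1021 to 1183. The organs carried their own markers: 7 of 7 measured hepatocyte genes were higher in liver than in spleen of vehicle rats, and all 4 B cell, 4 T cell and 6 erythroid genes tested were lower. Of all 12474 genes tested, 20.2% were higher in liver and 59.2% lower, so a lower value in liver was the common direction. In spleen, the summed intensity of 7 erythroid genes was 1346 to 1690 in cyclophosphamide rats and 10542 to 20601 in vehicle rats, and that of 5 B cell genes was 460 to 1012 and 13168 to 17357. The sum of 7 macrophage genes was 26128 to 29695 in cyclophosphamide spleens and 13833 to 17703 in vehicle spleens, and that of 7 stromal and endothelial genes 8744 to 10340 and 4074 to 4840. The sum of 8 proliferation genes was 1167 to 2508 in cyclophosphamide spleens and 3592 to 7592 in vehicle spleens, and that of 7 adipocyte genes 14796 to 20959 and 8900 to 11660. The sum of 7 exocrine pancreas genes was 456 to 14719 in cyclophosphamide spleens and 262 to 920 in vehicle spleens. That of 6 T cell genes was 4616 to 7267 and 5960 to 7548, and that of 7 hepatocyte genes 222 to 702 and 324 to 880. The pancreas, T cell and hepatocyte sums overlapped between the treatments. The other lists above moved together with the spleen differences between the treatments given here. The part of any list in these differences was not tested. In whole organs, fewer cells of a type and less RNA per cell cannot be told apart.

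The spleens of treated rats differed from those of vehicle rats in 33 of 89 members, 16 higher and 17 lower, and the directions differed between the complexes. All 4 subunits of complex II were higher, 4 of 7 subunits of complex III were lower and none higher, and complex I had 9 of 34 subunits higher and 2 lower. The rises in complex I were near the share of all tested genes that were higher (26.9%). The changes were small: 6 of 89 members (6.74%) moved by over 0.5 on the log2 scale in either direction, against 5149 of all 13614 tested genes (37.8%). In limma over 12 spleen arrays, 37.1% of the members passed an adjusted p of 0.05, against 55.0% of all tested genes (26.9% higher and 28.1% lower). The median log2 change was −0.01 over the members and −0.02 over all tested genes. Over 88 members with a value on all 12 arrays, the 6 cyclophosphamide rats lay wholly above the 6 vehicle rats in 16, where 16.1% of all genes did, and wholly below in 7, where 15.1% did. Of the 33 calls, 28 held in each of 12 refits that left out 1 rat.

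**Figure D1:**
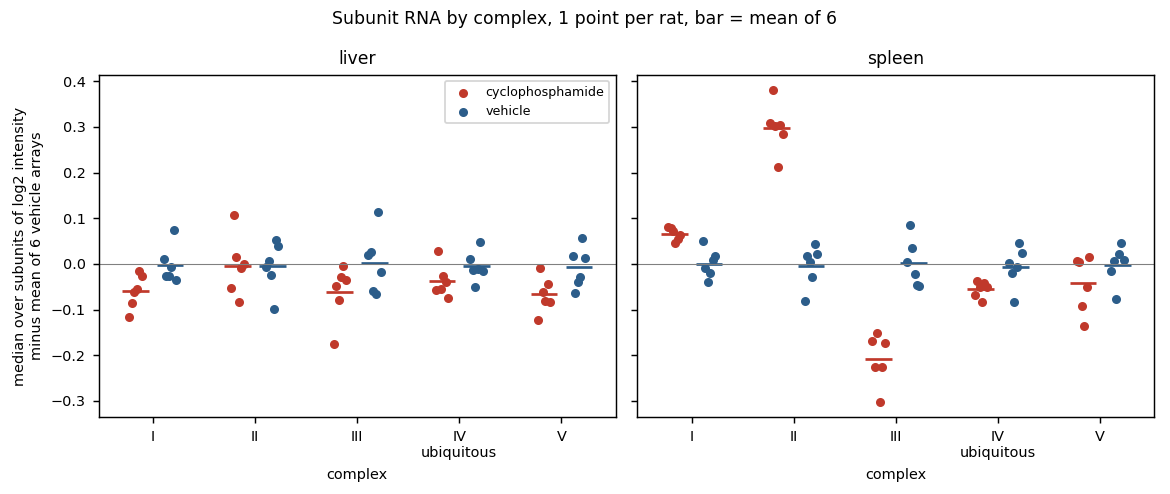
Median over the subunits of each complex of the log2 intensity minus the mean of the 6 vehicle arrays, in liver (left) and spleen (right); each point is 1 rat (red cyclophosphamide, blue vehicle) and bars are means of 6. In spleen the complex II medians of treated rats lay 0.21 to 0.38 above the vehicle mean and the complex III medians −0.30 to −0.15 from it, while in liver the treatments overlapped in every complex.

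Complex II, succinate dehydrogenase, is built of the flavoprotein Sdha, the iron-sulphur protein Sdhb and the membrane anchors Sdhc and Sdhd. Sdhc had log2 intensities of 10.42, 10.60 and 10.70 (lowest, median and highest) in the 6 cyclophosphamide spleens and of 10.12, 10.15 and 10.21 in the 6 vehicle spleens, a log2 change of 0.44 ± 0.05 (SE; limma adjusted p = 8.47e-05). Sdhb was at 10.70, 10.74 and 10.86 in cyclophosphamide rats and at 10.31, 10.40 and 10.50 in vehicle rats, a change of 0.34 ± 0.05 (limma adjusted p = 0.000388). For both genes every treated spleen was above every vehicle spleen. Sdha was at 10.63, 10.79 and 10.84 in cyclophosphamide rats and at 10.45, 10.53 and 10.58 in vehicle rats, a change of 0.25 ± 0.05 (limma adjusted p = 0.00249). Sdhd was at 11.08, 11.19 and 11.24 in cyclophosphamide rats and at 10.87, 11.00 and 11.02 in vehicle rats, a change of 0.20 ± 0.05 (limma adjusted p = 0.00817). Neither gene's groups overlapped, and all 4 genes passed the threshold in each of the 12 refits without 1 rat and in every other alternative tried for this contrast. Sdhd has another probe set, which differed by 0.34 in the same direction.

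The 4 factors that build complex II moved in different directions, 1 lower, 1 higher and 2 not past the threshold. Sdhaf1, which helps to place iron-sulphur clusters in Sdhb, fell: it was at 9.49, 9.61 and 9.70 in cyclophosphamide spleens and at 10.24, 10.32 and 10.46 in vehicle spleens, a change of −0.75 ± 0.06 (limma adjusted p = 3.59e-06). Sdhaf4, which helps Sdha to join Sdhb, was higher, at 7.87, 8.02 and 8.22 in cyclophosphamide rats and 7.33, 7.43 and 7.76 in vehicle rats, a change of 0.54 ± 0.09 (limma adjusted p = 0.000882). The treatments did not overlap in either gene. Sdhaf2, needed to attach flavin to Sdha, changed by 0.00 ± 0.11, and Sdhaf3, another factor of Sdhb maturation, by 0.28 ± 0.11 (limma adjusted p = 0.0561).

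In complex III, the falls were in a hinge, an electron-carrying and 2 further subunits. Uqcrh, the acidic hinge protein that binds cytochrome c1, was at 11.41, 11.47 and 11.55 in cyclophosphamide spleens and at 11.88, 11.97 and 12.05 in vehicle spleens, a change of −0.49 ± 0.05 (limma adjusted p = 2.68e-05). Uqcrfs1, the Rieske iron-sulphur protein, was at 10.82, 10.90 and 10.98 in cyclophosphamide spleens and at 11.06, 11.23 and 11.32 in vehicle spleens, a change of −0.31 ± 0.06 (limma adjusted p = 0.00108). Neither overlapped between the treatments. Uqcrc2, a core protein, changed by −0.22 ± 0.07 (limma adjusted p = 0.0181) and Uqcrq, a small subunit near the ubiquinone site, by −0.22 ± 0.07 (limma adjusted p = 0.0275), with overlap in both. A second probe set of Uqcrc2 differed by −0.05, and the mean of its probe sets missed the threshold. Both missed the threshold once the split of the spleen arrays by blank cells entered the fit as a batch term (limma adjusted p = 0.0630 for Uqcrc2 and 0.114 for Uqcrq). The other core protein, Uqcrc1, was at 10.66, 10.76 and 10.82 in cyclophosphamide rats and at 10.65, 10.73 and 10.82 in vehicle rats, a change of 0.01 ± 0.05. Uqcr11 changed by 0.09 ± 0.05 and Uqcr10 by −0.13 ± 0.12, neither past the threshold.

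**Figure D2:**
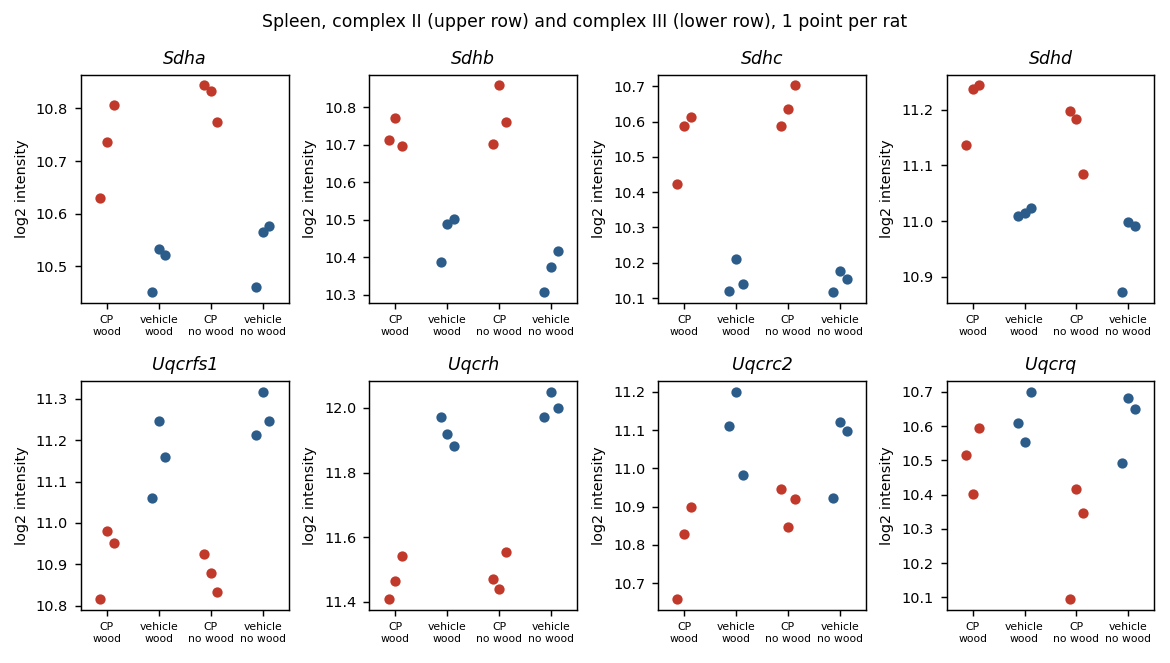
Log2 intensity of the 4 complex II subunits (upper row) and of the 4 complex III subunits that fell (lower row) in spleen, 1 point per rat, by group (CP, cyclophosphamide, red; vehicle, blue; 3 rats each). Sdha, Sdhb, Sdhc and Sdhd are higher and Uqcrfs1 and Uqcrh lower in treated rats without overlap, while Uqcrc2 and Uqcrq overlap.

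In complex I, 0 of the 6 core subunits passed the threshold, and the changes lay in the supernumerary subunits, which surround the core and stabilise it. The core subunits changed by −0.07 (Ndufs7) to 0.11 (Ndufv2), with Ndufs8 nearest to 0 at 0.02 ± 0.07. Ndufa3 was at 9.35, 9.57 and 9.65 in cyclophosphamide spleens and at 8.81, 9.12 and 9.31 in vehicle spleens, a change of 0.45 ± 0.06 (limma adjusted p = 0.000181). Ndufv3, a small partner of the NADH-oxidising flavoprotein, was at 9.42, 9.63 and 9.67 in cyclophosphamide spleens and at 9.07, 9.13 and 9.23 in vehicle spleens, a change of 0.45 ± 0.06 (limma adjusted p = 0.00015). In both genes the treatments did not overlap. Ndufa13, also studied as the cell death regulator GRIM-19, was at 10.91, 11.00 and 11.17 in cyclophosphamide rats and at 10.58, 10.72 and 10.86 in vehicle rats, a change of 0.31 ± 0.06 (limma adjusted p = 0.00148). Ndufa8, Ndufa7, Ndufa9, Ndufb6, Ndufb4 and Ndufb9 were higher by 0.30, 0.28, 0.25, 0.24, 0.21 and 0.19. Of these, Ndufb6 was nearest to the threshold (limma adjusted p = 0.0489). Ndufa7 and Ndufa9 missed it when all probe sets of a gene were averaged: the second, dimmer probe set of Ndufa9 differed by −0.43, and the averaged value of Ndufa9 was −0.09 (limma adjusted p = 0.655).

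The 2 complex I subunits that fell, Ndufs4 and Ndufs6, belong to the NADH-oxidising arm and are known from inherited complex I deficiency in humans. Ndufs4 was at 7.96, 8.08 and 8.84 in cyclophosphamide spleens and at 8.30, 8.93 and 9.63 in vehicle spleens, a change of −0.78 ± 0.13 (limma adjusted p = 0.000759). Ndufs6 was at 9.46, 9.55 and 10.04 in cyclophosphamide spleens against 9.60, 9.72 and 9.77 in vehicle spleens with wood and 10.23, 10.40 and 10.23 in vehicle spleens without, a change of −0.37 ± 0.10 (limma adjusted p = 0.00742). The treatments overlapped in both, and the blank-rich array of rat 2005 was the highest treated one. With the batch term the changes were −0.51 ± 0.08 for Ndufs4 (limma adjusted p = 0.000707) and −0.21 ± 0.07 for Ndufs6 (limma adjusted p = 0.0382). Among rats with wood, none of whose arrays is blank-rich, Ndufs4 was at 8.03, 8.12 and 8.02 under cyclophosphamide and at 8.30, 8.45 and 8.38 under vehicle.

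Assembly factors of complex I fell or did not pass the threshold. Ndufaf5, which hydroxylates the core subunit Ndufs7, was at 6.71, 6.83 and 7.50 in cyclophosphamide spleens and at 7.10, 7.63 and 7.83 in vehicle spleens, a change of −0.62 ± 0.13 (limma adjusted p = 0.00195). Ndufaf4, an early assembly factor, was at 8.32, 8.57 and 8.70 in cyclophosphamide spleens and at 8.87, 9.05 and 9.10 in vehicle spleens, a change of −0.48 ± 0.08 (limma adjusted p = 0.000693). Ndufaf7, a methyltransferase needed for complex I assembly, changed by −0.37 ± 0.09 (limma adjusted p = 0.00491), and its other probe set differed by −0.32. Of the 3, only Ndufaf4 had no overlap between the treatments. Ndufaf1, Ndufaf3 and Ndufaf8 changed by 0.07, 0.09 and −0.12 and did not pass.

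Complex IV, cytochrome c oxidase, had 1 widely expressed subunit higher and 3 lower of 10. Ndufa4, first described in complex I and now counted to complex IV, was at 11.14, 11.17 and 11.27 in cyclophosphamide spleens and at 10.92, 11.02 and 11.07 in vehicle spleens, a change of 0.18 ± 0.05 (limma adjusted p = 0.0141). Cox5a, a matrix-side subunit, was at 6.77, 7.11 and 7.37 in cyclophosphamide spleens and at 7.42, 7.59 and 8.02 in vehicle spleens, a change of −0.60 ± 0.12 (limma adjusted p = 0.00183). The treatments did not overlap in either gene. A brighter probe set that names Cox5a together with a locus of no further name averaged 11.38 ± 0.09 in cyclophosphamide spleens and 11.74 ± 0.10 in vehicle spleens (SD, n = 6 each), a difference of −0.36. Cox7c changed by −0.19 ± 0.07 (limma adjusted p = 0.0423) and Cox4i1 by −0.13 ± 0.05 (limma adjusted p = 0.0499). Both were near the threshold, and each missed it in most refits without 1 rat, passing in 3 of 12 for Cox7c and 2 of 12 for Cox4i1. Cox6b1 was nearest to 0, at −0.00 ± 0.06.

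Cox7a2l, which ties complexes III and IV into supercomplexes, fell without overlap. It was at 11.24, 11.33 and 11.42 in cyclophosphamide spleens and at 11.58, 11.70 and 11.75 in vehicle spleens, a change of −0.36 ± 0.05 (limma adjusted p = 0.000227).

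Of the complex IV isoforms with restricted expression, 0 of 6 tested passed the threshold in spleen. Cox7a1, a form of heart and skeletal muscle, had no drug effect in the fit because it was blank in 4 spleens, those with the blank-rich arrays. With wood it was at 7.27, 6.69 and 6.87 in cyclophosphamide rats and at 5.85, 5.54 and 5.71 in vehicle rats, which did not overlap and differed by 1.24 ± 0.17 (limma adjusted p = 0.0037 over those 6 arrays). The cyclophosphamide rats 2001 and 2003 without wood were at 6.79 and 6.90. Cox8b and Cox6a2, also muscle forms, changed by 0.67 ± 0.44 and −0.21 ± 0.23, and Cox4i2, known from lung and hypoxia, by −0.20 ± 0.70. Cox6b2 and Cox7b2, known from testis, changed by 0.09 ± 0.10 and −0.21 ± 0.19, and Ndufa4l2, induced by hypoxia, by 0.50 ± 0.22 (limma adjusted p = 0.0806). Beside these, the sum of 8 striated muscle genes was 963 to 1411 in cyclophosphamide spleens and 929 to 1144 in vehicle spleens, and that of 5 smooth muscle genes 3436 to 3927 and 1775 to 2470. The part of muscle RNA in the isoform values was not tested.

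In complex V, 1 of 15 subunits was higher and 3 were lower. Atp5pf, coupling factor 6 of the peripheral stalk, was at 10.47, 10.67 and 10.78 in cyclophosphamide spleens and at 10.22, 10.30 and 10.38 in vehicle spleens, a change of 0.35 ± 0.06 (limma adjusted p = 0.000973). Atp5pd, subunit d of the same stalk, was at 11.13, 11.17 and 11.23 in cyclophosphamide spleens and at 11.25, 11.33 and 11.41 in vehicle spleens, a change of −0.17 ± 0.05 (limma adjusted p = 0.0142). Both stalk subunits separated the treatments, in opposite directions. The central stalk subunits Atp5f1d and Atp5f1e changed by −0.26 ± 0.10 (limma adjusted p = 0.0471) and −0.19 ± 0.06 (limma adjusted p = 0.0181), with overlap. The catalytic subunits Atp5f1a and Atp5f1b changed by −0.09 ± 0.06 and −0.01 ± 0.07 and did not pass, and Atp5mf was nearest to 0, at 0.01 ± 0.05. Atp5me, subunit e, changed by 0.44 ± 0.17 (limma adjusted p = 0.0527), with vehicle values from 8.12 to 10.30. Atp5if1, which stops the enzyme from running backwards and is known from zebrafish to be needed for haem synthesis, was at 10.39, 10.55 and 10.71 in cyclophosphamide spleens and at 10.17, 10.56 and 10.92 in vehicle spleens, a change of 0.01 ± 0.07. The pseudogene Cox6c-ps1 changed by −0.16 ± 0.15 and did not pass.

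**Figure D3:**
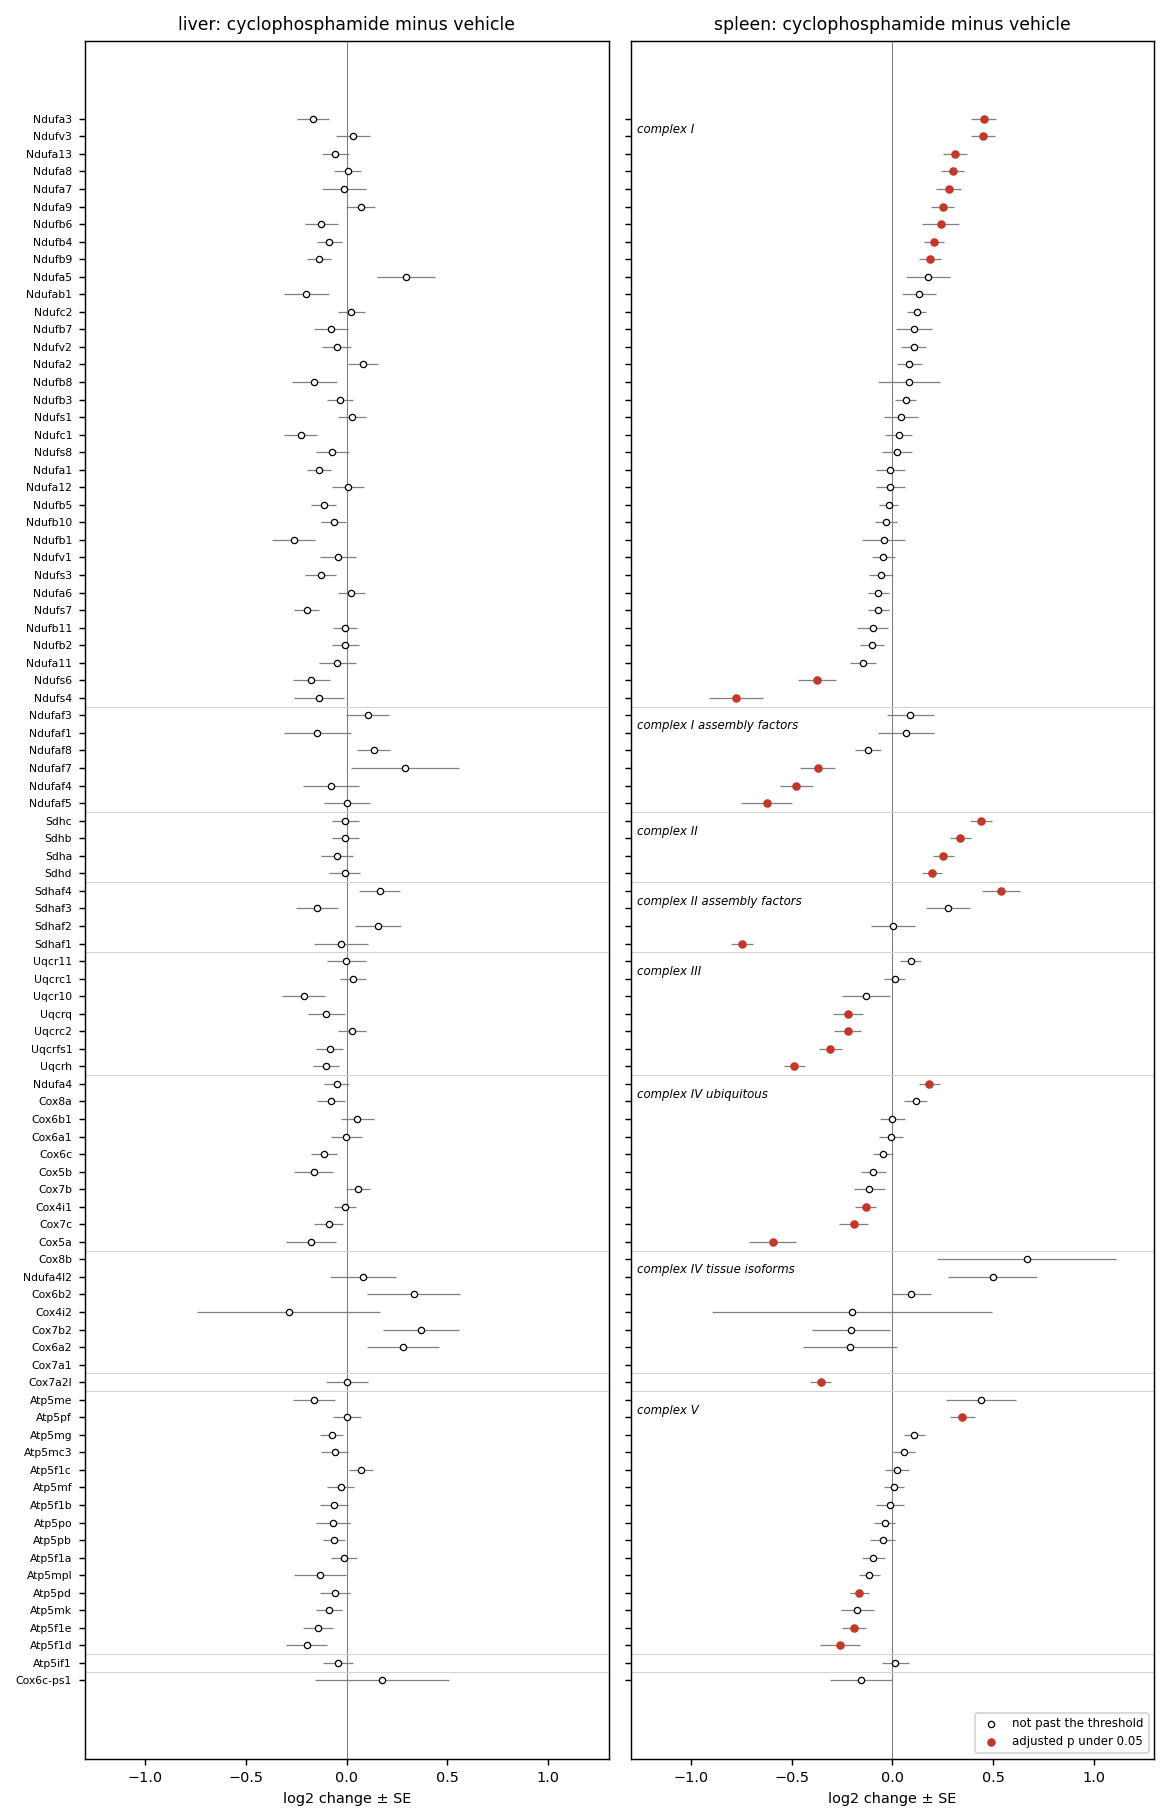
Log2 change of every tested member, cyclophosphamide minus vehicle, with its SE, in liver (left) and spleen (right), grouped by complex and ordered by the spleen change; filled red points passed an adjusted p of 0.05. In spleen 33 of 89 points are filled and in liver 0 of 89; Cox7a1 in liver, at 2.70 from 5 arrays with a value, lies outside the axis.

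The drug effect was also read in each housing. Without wood 26 of 89 members passed (15 higher, 11 lower; 45.1% of all tested genes passed, 22.7% higher and 22.4% lower), and with wood 17 did (9 higher, 8 lower; 38.4% of all, 19.9% higher and 18.5% lower). Without wood all 3 vehicle arrays and 1 of 3 treated arrays are blank-rich, and 7 members were higher there with the batch term and 8 with the 2 groups fitted alone. The 2 lists shared 15 genes with the same direction, and among them were Sdha, Sdhb, Sdhc, Sdhaf1, Sdhaf4, Uqcrh, Uqcrfs1, Cox7a2l and Atp5pf. Without wood, Ndufa3 (0.59 ± 0.09), Sdhc (0.49 ± 0.08), Sdhb (0.41 ± 0.07), Ndufv3 (0.42 ± 0.09) and Ndufa13 (0.40 ± 0.08) led the rises by p, and Sdhaf1 (−0.69 ± 0.08), Uqcrh (−0.52 ± 0.07), Ndufs4 (−1.23 ± 0.19), Cox5a (−0.86 ± 0.17) and Uqcrfs1 (−0.38 ± 0.08) the falls. The change of Ndufs4 without wood was −0.71 ± 0.13 with the batch term, and with wood it was −0.32 ± 0.19 (limma adjusted p = 0.218). In a fit of the 8 spleen arrays with fewer blank cells, chosen after seeing the data, the change with wood was −0.32 ± 0.09 (limma adjusted p = 0.024). With wood, Ndufv3 (0.48 ± 0.09), Sdhc (0.38 ± 0.08), Atp5pf (0.39 ± 0.09), Sdhaf4 (0.57 ± 0.13) and Sdhb (0.27 ± 0.07) led the rises, and Sdhaf1 (−0.81 ± 0.08), Uqcrh (−0.45 ± 0.07), Cox7a2l (−0.39 ± 0.07), Ndufaf4 (−0.42 ± 0.11) and Atp5f1e (−0.28 ± 0.08) the falls. The difference of the drug effects between the housings passed in 0 of 89 members (0.705% of all genes, 0.147% higher and 0.558% lower). The smallest p were those of Ndufs4 (0.91 ± 0.27 with minus without wood; limma adjusted p = 0.194), Atp5me (−1.10 ± 0.34; 0.223) and Ndufaf1 (−0.68 ± 0.28; 0.342).

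Wood itself, averaged over both treatments in spleen, passed in 8 of 89 members, 3 higher and 5 lower, against 12.1% of all tested genes (6.05% higher and 6.05% lower). Atp5me was higher with wood by 0.94 ± 0.17 (limma adjusted p = 0.015), Ndufa3 by 0.25 ± 0.06 (0.0357) and Cox8b by 1.57 ± 0.44 (0.0478). Ndufs4 was lower by −0.72 ± 0.13 (limma adjusted p = 0.016), and Uqcr10 (−0.55 ± 0.12), Ndufa5 (−0.43 ± 0.11), Ndufs6 (−0.38 ± 0.10) and Atp5if1 (−0.34 ± 0.07) were lower too. Several of these genes followed the split of the arrays by blank cells, which lies mostly along housing, since all 4 blank-rich arrays are from rats without wood. Uqcr10 was at 10.20, 10.27 and 10.21 in cyclophosphamide rats with wood and at 10.33 and 10.22 in rats 2001 and 2003 without wood, but at 10.98 in rat 2005. In vehicle rats it was at 10.06, 10.14 and 10.07 with wood and at 10.91, 10.99 and 10.83 without. The blank-rich arrays were thus the 4 highest for Uqcr10, and they were also the 4 highest for Ndufs4 and Ndufs6 and the 4 lowest for Atp5me and Cox8b. With the batch term 0 of the 89 members passed for wood, and 93 of all tested genes did. Among the 8 other arrays, where only the wood effect under cyclophosphamide can be read, 0 members and 3 of all tested genes passed. That effect was 0.00 ± 0.10 for Ndufs4, 0.00 ± 0.09 for Ndufs6, −0.05 ± 0.08 for Uqcr10 and −0.07 ± 0.31 for Cox8b. In vehicle spleens housing and this split cannot be told apart.

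**Figure D4:**
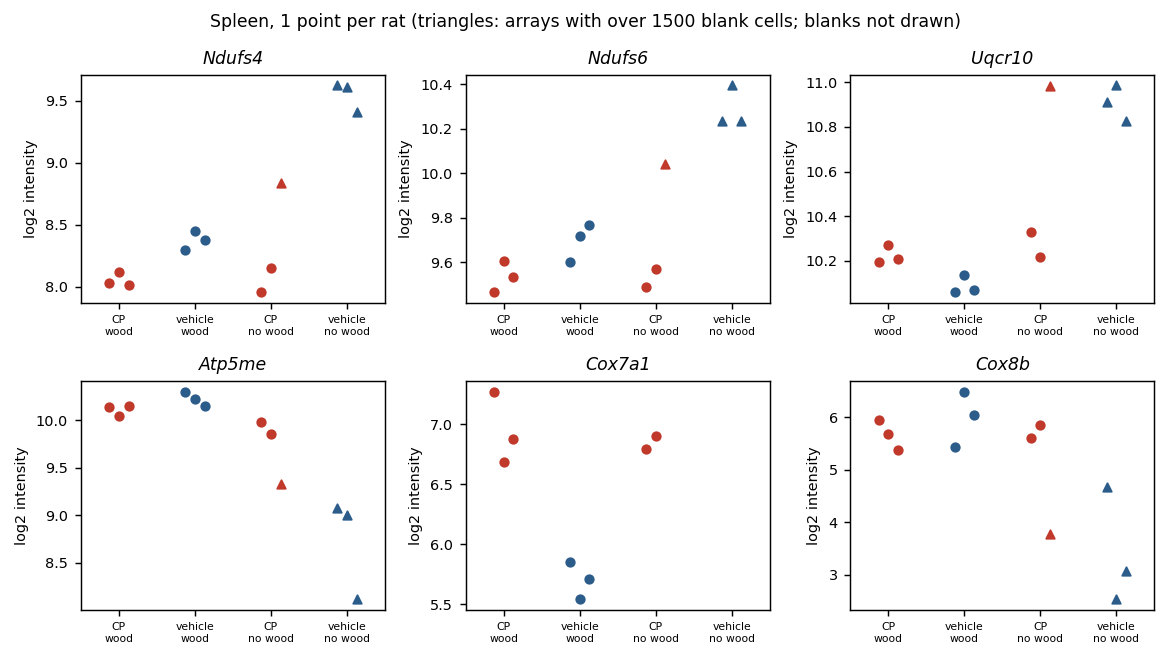
Log2 intensity in spleen of 6 members whose values follow the split of the arrays by blank cells, 1 point per rat, by group (CP, cyclophosphamide, red; vehicle, blue); triangles are the 4 arrays with 1778 to 1920 blank cells, circles the other 8, and blank values are not drawn. Rat 2005, the triangle among the cyclophosphamide rats without wood, lies nearer to the vehicle rats without wood than to the other treated rats for Uqcr10.

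In liver no member passed the threshold for the drug: 0 of 89 were called, where 0.812% of 12683 tested genes were (0.166% higher and 0.647% lower). The median log2 change was −0.05 over the members and −0.02 over all tested genes. The smallest adjusted p was that of Ndufs7, a core subunit that carries an iron-sulphur cluster, at 10.61, 10.69 and 10.81 in cyclophosphamide livers and at 10.83, 10.90 and 10.92 in vehicle livers, a change of −0.20 ± 0.06 (limma adjusted p = 0.191). Its treatments did not overlap, and neither did those of Ndufa1, Ndufb1 and Ndufb9: 4 of 87 members with 12 values lay wholly lower in treated livers, where 1.82% of all genes did, and 0 wholly higher, where 1.06% did. These 3 changed by −0.14 ± 0.06, −0.26 ± 0.11 and −0.14 ± 0.06.

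The complex II subunits, all higher in spleen, did not pass the threshold in liver. Sdhc was at 11.18, 11.31 and 11.35 in cyclophosphamide livers and at 11.19, 11.29 and 11.37 in vehicle livers, a change of −0.01 ± 0.07, and Sdha, Sdhb and Sdhd changed by −0.05 ± 0.08, −0.01 ± 0.07 and −0.01 ± 0.08. The groups overlapped in all 4. In the other classes, the members nearest to 0 in liver were Ndufs1 (0.03 ± 0.07), Ndufa8 (0.00 ± 0.07), Ndufaf5 (0.00 ± 0.11), Uqcr11 (−0.00 ± 0.10), Cox6a1 (−0.00 ± 0.08) and Atp5pf (0.00 ± 0.07). The inhibitor Atp5if1 changed by −0.04 ± 0.08. Of the isoforms, Cox6a2, Cox6b2, Cox7b2, Ndufa4l2 and Cox4i2 changed by 0.28, 0.33, 0.37, 0.08 and −0.29 and did not pass. Cox7a1 had a liver value in 3 of 6 cyclophosphamide and 2 of 6 vehicle rats, so its fitted change of 2.70 rests on 5 arrays, 2 in cyclophosphamide rats with wood and 1 in each other group, and is not read as a test. In the same livers 4 of 7 Kupffer cell genes and 1 of 6 erythroid genes tested were lower, and the sum of 7 hepatocyte genes was 66110 to 77026 in cyclophosphamide and 71184 to 76610 in vehicle rats.

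Each housing alone gave no call in liver either. The drug effect passed in 0 of 89 members without wood (0.150% of all genes, 0.0552% higher and 0.0946% lower) and in 0 with wood (0.0473%, all lower). The smallest p without wood were those of Ndufc1 (−0.41 ± 0.11; limma adjusted p = 0.218), Ndufb1 (−0.40 ± 0.15; 0.345) and Cox7a1, whose difference of 4.50 is between single arrays, at 2.89 in a cyclophosphamide rat and −1.61 in a vehicle rat. With wood they were those of Ndufa5 (0.57 ± 0.21; limma adjusted p = 0.481), Ndufs7 (−0.24 ± 0.09; 0.482) and Atp5f1d (−0.36 ± 0.14; 0.554). Rat 2003 was the lowest of 12 livers for Ndufc1, Ndufb1, Ndufs4, Ndufs6 and Uqcr10, and leaving it out also gave 0 calls. Wood passed in 0 members in liver (0% of all genes), with Atp5f1c (0.16 ± 0.06; limma adjusted p = 0.707) and Atp5f1d (0.18 ± 0.10; 0.85) first by p beside Cox7a1, whose 3.10 rests on the same 5 arrays. The interaction passed in 0 (0% of all genes), with Ndufc1 (0.36 ± 0.16) and Ndufa5 (0.56 ± 0.29) first by p, at limma adjusted p of 0.95 each, beside Cox7a1, whose −3.62 rests on those arrays too.

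The drug effects of the 2 organs were tested against each other over 24 arrays. They differed in 23 of 88 members, 7 with a higher and 16 with a lower value in liver, where 33.1% of 12474 genes differed (14.7% higher and 18.4% lower). Of the 4 complex II subunits, 3 were among those with a lower effect in liver (Sdhc −0.01 in liver and 0.44 in spleen; difference −0.44 ± 0.08; limma adjusted p = 0.000235), and Sdhd was not (−0.21 ± 0.09; limma adjusted p = 0.075). The most negative differences were those of Ndufa3 (−0.17 in liver and 0.45 in spleen; −0.62 ± 0.10), Atp5me (−0.60 ± 0.21) and Sdhc. That of Atp5me, whose spleen values follow the split by blank cells, turned to 0.64 (limma adjusted p = 0.588) with the mean of its probe sets, of which the dimmer differed by −0.40 between the treatments in spleen. The most positive were those of Sdhaf1 (−0.03 in liver and −0.75 in spleen; 0.72 ± 0.14), Ndufs4 (0.64 ± 0.18) and Ndufaf5 (0.63 ± 0.17). In complex III, Uqcrh, Uqcrc2 and Uqcrfs1 differed, by 0.39, 0.25 and 0.22. The erythroid, B cell and macrophage genes also differed between the organs in their drug effect, in 5 of 6, 4 of 4 and 7 of 7 tested.

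In vehicle rats the members stood higher in liver than in spleen, as far as the unknown scaling of the deposited values between organs allows. Of 88 members, 63 were higher and 10 lower in liver, where 20.2% of all 12474 genes were higher and 59.2% lower (79.5% in either direction). The median difference, liver minus spleen, was 0.41 over the members and −0.72 over all genes. All 6 core subunits of complex I, all 4 of complex II and 14 of 15 of complex V were higher in liver, with 0 lower in these classes. The acyl carrier Ndufab1 was at 11.28, 11.43 and 11.52 in vehicle livers and at 9.37, 9.50 and 9.67 in vehicle spleens, a difference of 1.90 ± 0.10 (limma adjusted p = 1.78e-12). Ndufa3 and Ndufc1 followed, at 1.58 ± 0.07 and 1.56 ± 0.07. The organs did not overlap for these genes.

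The exceptions that were lower in liver were not chain subunits of wide expression, save Uqcrh at −0.52 ± 0.05. The inhibitor Atp5if1 was at 7.73, 7.85 and 7.91 in vehicle livers and at 10.17, 10.56 and 10.92 in vehicle spleens, a difference of −2.69 ± 0.07 (limma adjusted p = 6.93e-17). Its other, dimmer probe sets averaged 5.81 and 4.35 in vehicle livers and 6.41 and 4.93 in vehicle spleens. Those gaps are in the same direction but much smaller. Cox6b2 was at 2.95, 3.39 and 3.97 in vehicle livers and at 6.17, 6.41 and 6.72 in vehicle spleens, a difference of −2.98 ± 0.17. For Atp5if1 and Cox6b2, as read here, every liver was below every spleen. The liver values of Cox6b2 are dim, far below the median intensities of those arrays (90.6 to 92.4 before the log2), so the size of its difference is uncertain. Sdhaf1 (−1.78 ± 0.10), Cox7a2l (−1.56 ± 0.08), Cox7b2 (−0.93 ± 0.20) and the complex I assembly factors Ndufaf7 (−1.50 ± 0.20), Ndufaf5 (−1.11 ± 0.12), Ndufaf8 (−0.69 ± 0.07) and Ndufaf4 (−0.69 ± 0.11) were the others. Of these, Sdhaf1, Cox7a2l, Uqcrh, Ndufaf4, Ndufaf5 and Ndufaf7 also fell in the spleens of treated rats, where 28.1% of all tested genes were lower. The same vehicle spleens enter both comparisons, so the 2 directions are not independent of each other.

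**Figure D5:**
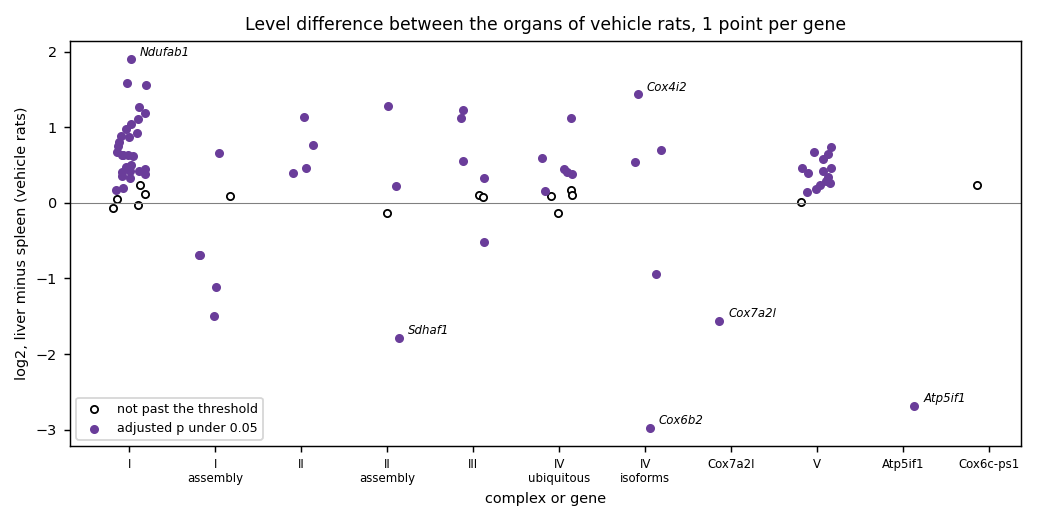
Log2 difference between liver and spleen in vehicle rats (liver minus spleen; 6 rats per organ), 1 point per member, by complex or gene; filled points passed an adjusted p of 0.05. Most subunits lie above 0, and Cox6b2, Atp5if1, Sdhaf1 and Cox7a2l lie lowest, between −2.98 and −1.56. The liver values of Cox6b2 are dim.

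Other mitochondrial genes were counted from lists of general knowledge. In spleen, where 26.9% of all tested genes were higher and 28.1% lower, of 73 genes of the mitochondrial ribosome 7 were higher and 29 lower under cyclophosphamide (median log2 change −0.17), and of 23 genes of protein import 1 was higher and 12 lower (median −0.17). Mrpl1 (−0.90 ± 0.13), Mrps23 (−0.63 ± 0.16) and Mrps2 (−0.61 ± 0.10) led the ribosomal falls and Mrps6 (0.46 ± 0.11), Mrpl17 (0.41 ± 0.05) and Mrps27 (0.38 ± 0.12) the rises. In the import list Timm8a1 (−0.92 ± 0.10), Timm44 (−0.83 ± 0.21) and Timm9 (−0.77 ± 0.08) fell most, and Timm8b (0.22 ± 0.06) was higher. Among 30 further assembly factors 3 were higher, Taco1 (1.40 ± 0.52), Nubpl (0.41 ± 0.06) and Atpaf1 (0.21 ± 0.08), and 6 lower, led by Atpaf2 (−0.71 ± 0.13), Cox10 (−0.42 ± 0.10) and Cox20 (−0.36 ± 0.11). Of 11 chaperones and proteases 1 was higher (Yme1l1, 0.23 ± 0.06) and 4 were lower, led by Afg3l2 (−0.77 ± 0.13), Spg7 (−0.50 ± 0.07) and Phb2 (−0.30 ± 0.06).

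Among the genes of the remaining lists, electron carriers that feed ubiquinone from fat and amino acid breakdown were higher. Etfdh, the ubiquinone oxidoreductase of that route, was at 8.34, 8.49 and 8.85 in cyclophosphamide spleens and at 7.56, 7.67 and 7.77 in vehicle spleens, a change of 0.85 ± 0.07 (limma adjusted p = 9.36e-06), and its electron donors Etfb and Etfa were higher by 0.66 ± 0.10 and 0.56 ± 0.08. The list of cytochrome c and carriers had 4 of 10 higher and 2 lower, namely the ADP/ATP carrier Slc25a5 (−0.20 ± 0.06) and the phosphate carrier Slc25a3 (−0.19 ± 0.07). Of 13 citric acid cycle genes, Suclg2 (0.48 ± 0.05), Suclg1 (0.40 ± 0.08) and Idh3b (0.16 ± 0.06) were higher and Idh3a (−0.58 ± 0.13) and Pdhb (−0.21 ± 0.07) lower. Against the 26.9% higher and 28.1% lower among all tested spleen genes, 3 of 13 glycolysis genes were higher, Pfkp (0.50 ± 0.06), Aldoa (0.33 ± 0.09) and Pfkl (0.16 ± 0.06), and 4 lower, led by Hk1 (−1.44 ± 0.19), Eno1 (−0.51 ± 0.06) and Gpi (−0.23 ± 0.05).

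Of 12 tested regulators of mitochondrial gene expression, 1 was higher and 6 were lower in treated spleens, where 26.9% of all tested genes were higher and 28.1% lower. Tfam, which packs and transcribes mitochondrial DNA, was at 7.80, 8.64 and 8.97 in cyclophosphamide spleens and at 9.18, 9.43 and 9.57 in vehicle spleens, a change of −0.93 ± 0.18 (limma adjusted p = 0.00141). The coactivator Pprc1 was at 6.86, 7.49 and 7.68 in cyclophosphamide spleens and at 8.24, 8.51 and 8.56 in vehicle spleens, a change of −1.09 ± 0.11 (limma adjusted p = 2.73e-05). Neither overlapped between the treatments. Nrf1 (−0.48 ± 0.11), Gabpb1 (−0.39 ± 0.07), Yy1 (−0.25 ± 0.05) and Tfb2m (−0.23 ± 0.06) also fell, and Ppargc1a, a dim coactivator with 3.96 to 5.14 in cyclophosphamide and 3.95 to 4.67 in vehicle spleens, was higher by 0.43 ± 0.15 (limma adjusted p = 0.0402) with overlap. Gabpa (0.09 ± 0.09), Esrra (−0.01 ± 0.20), Tfb1m (−0.19 ± 0.16), Polg (0.03 ± 0.07) and Polrmt (−0.28 ± 0.23) did not pass. In liver 0 genes of any of these lists passed for the drug.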

How the data were processed

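Total RNA (5 µg per sample, per the labels) of liver and spleen was hybridised to Affymetrix rat expression arrays. The deposited table holds 30980 probe sets on 24 arrays as log10 intensities; the base was inferred from the values, and the authors' summarisation, background correction and scaling are not given in the sources used here. Of 743520 cells 77831 were blank and were treated as missing. Values were turned to log2 and not scaled further.

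Genes came from the platform annotation: 20792 probe sets name 1 gene, 436 name several and 9752 name none; the last 2 kinds were not used. Of several probe sets the brightest on average over 24 arrays was kept, and all 90 member symbols are current in RefSeq. Testing required 1 value or more in each group. limma 3.58.1 (R 4.3.3; lmFit, contrasts.fit, eBayes) was fitted to all genes, with 4 group means over the 12 arrays of an organ, or 8 over 24 arrays for contrasts of the organs. P-values were adjusted after Benjamini and Hochberg within a contrast, with a threshold of 0.05. The drug effect averages both housings, and the interaction is the drug effect with wood minus that without. Each rat has an animal number, and no further statement says how the rats were raised or processed, so p-values measure the spread between these rats. The number of arrays limits the precision.

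The organs of a rat are paired by its number. Over 10530 genes the deviations of liver and spleen from their group means correlated at −0.06 to 0.17 in the 12 rats, over 0.1 in 2 of them, and a fit with the animal as a block is an alternative. The other alternatives were median centring, quantile normalisation, an offset of 16 with blanks at 0, at least 2 values per group, trend and robust eBayes, only genes at or above the median level, averaging a gene's probe sets, array weights, the 2 groups compared alone, a batch term for spleen arrays with over 1500 blank cells, and leaving out each rat. In simulated spleen data of 12837 genes the procedure recovered 172 of 200 changed genes and made 6 false calls. In the real spleens 55.0% of tested genes were called for the drug, a far larger share than was changed in the simulation. The simulation therefore cannot give the rate of false calls in the real data.

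Members and lists were chosen with earlier results of these data known. Named were all complex II subunits, complex IV isoforms, Atp5if1 and regulators; per complex up to 3 rises and 3 falls by size past the threshold and the member nearest to 0; up to 5 per direction by p for wood, the interaction and each housing, or the 3 smallest p where none passed; and up to 3 per direction by size for contrasts of the organs and for the other lists. Further members are named where a count is spelled out. The lowest and highest member by level were not named, since levels of different probe sets are not comparable.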

Additional observations from a re-analysis of the deposited data

Results flagged for a closer look

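The drug effect differed between the organs (liver minus spleen, limma over 24 arrays, adjusted p under 0.05) in 23 members, by the test of the difference itself. The complex II genes Sdhc (−0.44 ± 0.08), Sdhb (−0.34 ± 0.08) and Sdha (−0.30 ± 0.09) had a lower effect in liver than in spleen, as had the assembly factors Sdhaf3 (−0.42 ± 0.15) and Sdhaf4 (−0.37 ± 0.14). In complex I this held for Ndufa3 (−0.62 ± 0.10), Ndufv3 (−0.42 ± 0.10), Ndufb6 (−0.37 ± 0.12), Ndufa13 (−0.36 ± 0.08), Ndufb9 (−0.33 ± 0.07), Ndufa8 (−0.29 ± 0.08) and Ndufb4 (−0.29 ± 0.07), and in complexes IV and V for Ndufa4 (−0.23 ± 0.07), Atp5me (−0.60 ± 0.21), Atp5pf (−0.34 ± 0.09) and Atp5mg (−0.18 ± 0.07). A higher value in liver than in spleen was found for Uqcrfs1 (0.22 ± 0.08), Uqcrc2 (0.25 ± 0.09), Cox7a2l (0.36 ± 0.11), Uqcrh (0.39 ± 0.07), Ndufaf5 (0.63 ± 0.17), Ndufs4 (0.64 ± 0.18) and Sdhaf1 (0.72 ± 0.14). The part of the loss of erythroid and B cell RNA from the treated spleens in these differences was not tested. The difference of Atp5me turned to 0.64 (limma adjusted p = 0.588) with the mean of its probe sets. Spleen values of Atp5me and Ndufs4 follow the split of the arrays by blank cells, which is not part of this fit.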

How the results depend on the processing

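Of the 33 spleen drug calls, 27 to 33 were called again under each alternative. For 25 of them every alternative that tested the gene called it, but Cox5a, Ndufaf5 and Ndufaf7 were not tested among genes at or above the median level. Some class counts of that contrast moved by over 1.5 times. With the batch term the lower complex III subunits numbered 2, the lower complex IV isoforms 2, the higher complex V subunits 2 and the higher complex II assembly factors 2, the last also under median centring and under quantile normalisation. With array weights 2 complex IV subunits, 2 isoforms and 2 complex V subunits were higher. With the offset of 16 this was 1 isoform and 2 complex V subunits. Among genes at or above the median level 2 complex V subunits were higher and 1 of the 3 complex I assembly factors left to test was lower, and with trend and robust eBayes 3 complex V subunits were higher.

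For the drug without wood, 8 members were higher with the 2 groups fitted alone and 7 with the batch term. With wood, 15 were higher among genes at or above the median level and 14 with either trend and robust eBayes or array weights. For wood in spleen, 6 were higher with trend and robust eBayes, and 0 higher and 0 lower with the batch term and in the 8 arrays with under 1500 blank cells, an alternative chosen after seeing the data. Of all tested genes, 93 passed with the batch term and 3 in those 8 arrays. The interaction in spleen had 3 higher and 1 lower with array weights and 1 higher with the batch term. Between the organs of vehicle rats 6 members were lower in liver among genes at or above the median level.

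Leaving out 1 rat gave 15 to 18 higher and 13 to 18 lower for the spleen drug effect, with 1 to 2 complex II assembly factors higher, 1 to 2 complex IV subunits lower, 0 to 1 isoforms higher and 1 to 2 complex V subunits higher. It gave 3 to 11 lower for the drug with wood, 1 to 3 higher and 2 to 6 lower for wood, 0 to 4 higher and 0 to 2 lower for the interaction, and 0 calls in liver in each refit. With the animal as a replicate block (correlation 0.07), 8 members had a higher and 17 a lower drug effect in liver than in spleen, and in vehicle rats 63 were higher and 10 lower in liver, so the pairing moved no count by over 1.5 times.

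Signs turned for Ndufa9 with the mean of its probe sets (−0.0919 for the drug in spleen, −0.0957 without wood), and likewise for Atp5me (0.64 for the difference of drug effects, −0.43 between the organs of vehicle rats) and Atp5po (−0.43 between the organs). For wood in the 8 arrays Cox8b was at −0.0695, Ndufs4 at 0.000559 and Ndufs6 at 0.00346. None of these passed the threshold there, and the cause was not tested.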
